A study of Rattus norvegicus with 36 samples.

Results

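The comparison described here was SCGX against DCN at day: pineal glands of rats whose superior cervical ganglia, the source of the gland's sympathetic fibres, had been removed, against glands of rats whose ganglia were left in place but cut off from the brain. Its members were chosen by the labels as the 3 SCGX day and 3 DCN day libraries, 6 of the 36 libraries of the study and 6 of its 24 in vivo libraries. All rats were Sprague-Dawley. Male and female pups were operated on at postnatal day 5 and kept under alternating light and dark until their pineal glands were taken at day 40, at mid-day (ZT7, 7 hours after lights on). In SCGX rats both superior cervical ganglia were removed, and in DCN rats (decentralization) the sympathetic trunk was cut below each ganglion while the ganglion stayed where it was. Sham rats had the ganglia exposed and nothing cut, and Control rats had no operation. Glands of the night groups used beside them were taken at midnight (ZT19). Each library was a pool of glands, so a replicate here is a pool and not 1 animal, and the loss of nerve fibres was not itself measured in these libraries.

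The pineal gland makes melatonin at night under the control of the sympathetic nervous system. Fibres from the superior cervical ganglia release norepinephrine in darkness, which raises cyclic AMP in pinealocytes and with it the transcription of a large set of night-active genes. The same nerve endings also take up catecholamines from their surroundings.

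The 6 libraries held between 13944276 and 15893427 read-pairs counted on genes. The files give Ensembl identifiers, and none could be paired with a symbol from the tables used here, so genes are described by their behaviour in the other libraries of the study and at most 4 identifiers are given. A check of the tissue used 165 genes over 8 times higher in both separate pineal libraries than in a mixed-tissue library (pineal-enriched genes). They took between 52935 and 66240 CPM (read-pairs scaled to an equal library total) in the 6 libraries. The separate pineal libraries were at 56477 CPM (day) and 62262 CPM (night). The 2274 CPM of the mixed-tissue library was fixed low by the choice of these genes. The opposite check, on 754 genes over 32 times higher in mixed tissue than in pineal gland (mixed-tissue genes), set 1 of 6 libraries apart. Their summed level was 3675 CPM in DCN day replicate 1, against 543 and 503 CPM in DCN day replicates 2 and 3 and between 357 and 400 CPM in the SCGX day libraries. Counts of called genes are therefore given with and without DCN day replicate 1. Outside the 6 libraries, Sham night replicate 3 had the mixed-tissue genes raised as well, at 3703 CPM.

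With all 6 libraries, 121 of 15902 tested genes (0.761%) differed between SCGX and DCN at day at an adjusted p under 0.05 (quasi-likelihood test of edgeR, p-values adjusted by Benjamini and Hochberg). Of these, 94 genes were higher in SCGX, 0.591% of those tested, and 27 were lower, 0.17% of those tested. The higher genes had a median fold of 1.64 and reached 10.02-fold, with 27 over 2-fold and 13 over 4-fold. The lower genes had a median fold of 1.60 and reached 2.92-fold, with 6 over 2-fold. The split depended on scaling: by library size alone, 67 of 125 called genes were higher with all 6 libraries, and 265 of 631 without DCN day replicate 1, against 341 of 557 with the main scaling. At the published threshold for comparisons between operations (adjusted p under 0.001 and fold over 2), edgeR called 0 genes and DESeq2 called 56, while 3134 genes had an unadjusted p under 0.05.

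Without DCN day replicate 1 the number of called genes rose to 557 of 15655 (3.56%), with 341 higher in SCGX (2.18%) and 216 lower (1.38%). The spread between replicates, as edgeR's common coefficient of variation, was 16.68% with all 6 libraries and 9.77% without that library. All 121 genes (100% of them, and 21.7% of the 557) were among the 557, each in the same direction, in fits that share 5 libraries. The count depended on other libraries too. It was 2 without DCN day replicate 2, 109 without DCN day replicate 3, and 1, 65 and 3 without SCGX day replicates 1, 2 and 3. None of the 121 genes was a mixed-tissue gene, and 6 of the 557 were. Of all genes tested, 320 of 15902 were mixed-tissue genes with all 6 libraries, and 198 of 15655 without DCN day replicate 1. Genes raised in only 1 of 3 DCN libraries vary widely within that group. The count of 0 therefore does not show that the 121 genes were unaffected by DCN day replicate 1.

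**Figure D1:**
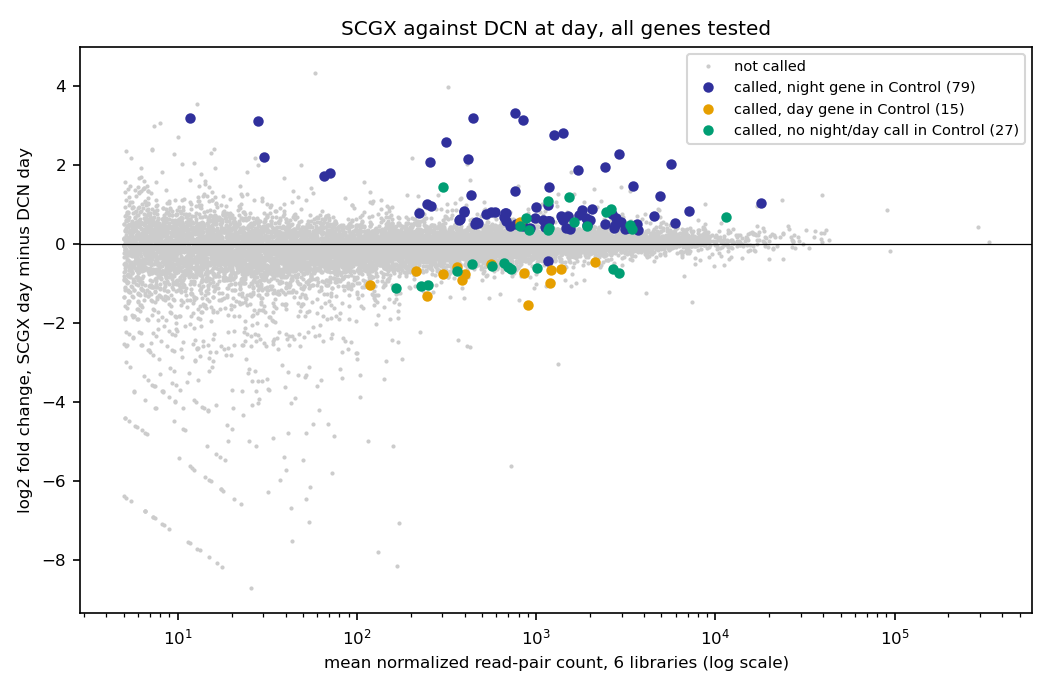
Each point is 1 of the 15902 tested genes, by its mean normalized read-pair count over the 6 libraries (x axis, log scale) and its log2 fold change of SCGX day minus DCN day (y axis). Coloured points are the 121 genes with an adjusted p under 0.05, by their night/day class in Control rats, and the highest of them are night genes; grey points, among them those far below 0, were not called.

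The 2 genes that were furthest above DCN in SCGX, with groups that did not overlap, were ENSRNOG00000018268 and ENSRNOG00000012878. The normalized read-pair count of ENSRNOG00000018268 was 1016, 1435 and 1662 in the SCGX day libraries and 74.1, 63.5 and 273 in the DCN day libraries. Every SCGX value was above every DCN value, and DCN day replicate 3 stood above the other DCN libraries. The log2 fold change was 3.32 ± 0.51 (SE, n = 3 and 3; adjusted p = 0.0404, edgeR) and 3.02 ± 0.46 without DCN day replicate 1 (adjusted p = 0.0175). Per length, its mean level was 35.6 ± 8.24 RPKM (SD, n = 3) in SCGX day and 3.71 ± 3.12 in DCN day, on a gene model of 2539 bases.

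ENSRNOG00000018268 was a night gene. In Control rats its mean normalized count was 36.2 ± 11.6 (SD, n = 3) at day and 2878 ± 1037 at night. SCGX day lay between these. Sham day, at 87.4 ± 12.9, was above Control day without overlap but far below SCGX day. Sham night was uneven, at 3761, 258 and 390, with replicates 2 and 3 below every SCGX day value. In cultured glands it was raised by norepinephrine, from between 3.36 and 4.33 CPM in 3 untreated libraries to between 19.96 and 36.2 CPM in 3 treated ones (log2 fold change 2.89 ± 0.21, adjusted p = 2.98e-08 by edgeR). At night the order in operated rats was the other way round but overlapped, with 98.1, 596 and 123 in SCGX and 873, 143 and 1298 in DCN (log2 fold change -1.48 ± 0.84, adjusted p = 1 by edgeR).

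ENSRNOG00000012878 had normalized counts of 462, 986 and 917 in the SCGX day libraries and of 136, 43.6 and 78.0 in the DCN day libraries. The groups did not overlap, and the DCN day mean of 85.7 ± 46.4 (SD, n = 3) was close to the Sham day mean of 91.8 ± 36.5. The log2 fold change was 3.19 ± 0.42 (SE, n = 3 and 3; adjusted p = 0.0293, edgeR), and 3.68 ± 0.39 without DCN day replicate 1 (adjusted p = 0.00779). Its night/day change in Control rats was far larger, from 123 ± 9.97 (SD, n = 3) at day to 22027 ± 4877 at night. Norepinephrine raised it in culture from between 85.4 and 100.5 CPM to between 748 and 796 CPM, and dibutyryl cyclic AMP (DBcAMP), a membrane-permeable form of the messenger, raised it to between 361 and 500.1 CPM. At night it was 368, 649 and 604 in SCGX and 99.02, 105 and 645 in DCN, which overlapped.

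The 2 genes that were furthest below DCN in SCGX by the same rule were ENSRNOG00000025895 and ENSRNOG00000021573, both of them day genes by their call in Control rats. ENSRNOG00000025895 had normalized counts of 485, 471 and 394 in the SCGX day libraries and of 1295, 1217 and 1432 in the DCN day libraries. The replicates were tight and the groups far apart, giving the smallest adjusted p of the comparison (log2 fold change -1.55 ± 0.10, SE, n = 3 and 3; adjusted p = 0.00881, edgeR) and the same size of change without DCN day replicate 1 (-1.56 ± 0.11, adjusted p = 0.00211). Control day, at 1446 ± 96.7 (SD, n = 3), and Sham day, at 1720 ± 77.5, were on the side of DCN. Sham night, at 809 ± 230, was below Sham day. The separate pineal libraries, 1 at day and 1 at night, were at 56.8 and 63.0 CPM, so not lower at night. SCGX day lay below even the Control night level of 737 ± 105, and at night the SCGX libraries, at 2280, 1778 and 1960, overlapped the DCN libraries, at 1499, 2321 and 618 (log2 fold change 0.445 ± 0.39, adjusted p = 1 by edgeR). Its level in culture was low, between 2.77 and 4.61 CPM with norepinephrine and between 2.87 and 4.87 CPM without, and no change was called (adjusted p = 0.964 by edgeR).

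ENSRNOG00000021573 had normalized counts of 151, 111 and 154 in the SCGX day libraries and of 388, 348 and 300.5 in the DCN day libraries. Its groups did not overlap either, and the log2 fold change was -1.32 ± 0.16 (SE, n = 3 and 3; adjusted p = 0.0249, edgeR; -1.23 ± 0.16 and 0.0112 without DCN day replicate 1). Unoperated and sham-operated rats fell on different sides: Control day was at 411 ± 92.3 (SD, n = 3), on the side of DCN, and Sham day at 177 ± 73.1, on the side of SCGX. Its day call in Control was of 1.70-fold (adjusted p = 0.0161, edgeR). In Sham rats the mean was higher at night, at 281 ± 161, with overlap. The highest of the Sham night values, 441, was in replicate 3, a library with raised mixed-tissue genes. The others were 119 and 284. The separate pineal libraries were at 26.2 CPM at day and 10.1 CPM at night. Each of the 4 genes lost its call when certain single libraries were left out: ENSRNOG00000018268 without DCN day replicate 2 or any SCGX day library, ENSRNOG00000012878 without any library other than DCN day replicate 1, ENSRNOG00000021573 without DCN day replicate 2 or SCGX day replicate 1 or 3, and ENSRNOG00000025895 without SCGX day replicate 1. The highest adjusted p in those fits (edgeR) was 0.206, 0.175, 0.134 and 0.0523 in that order. No sign changed, but this was all but fixed, because the 4 genes were picked for groups that did not overlap.

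**Figure D2:**
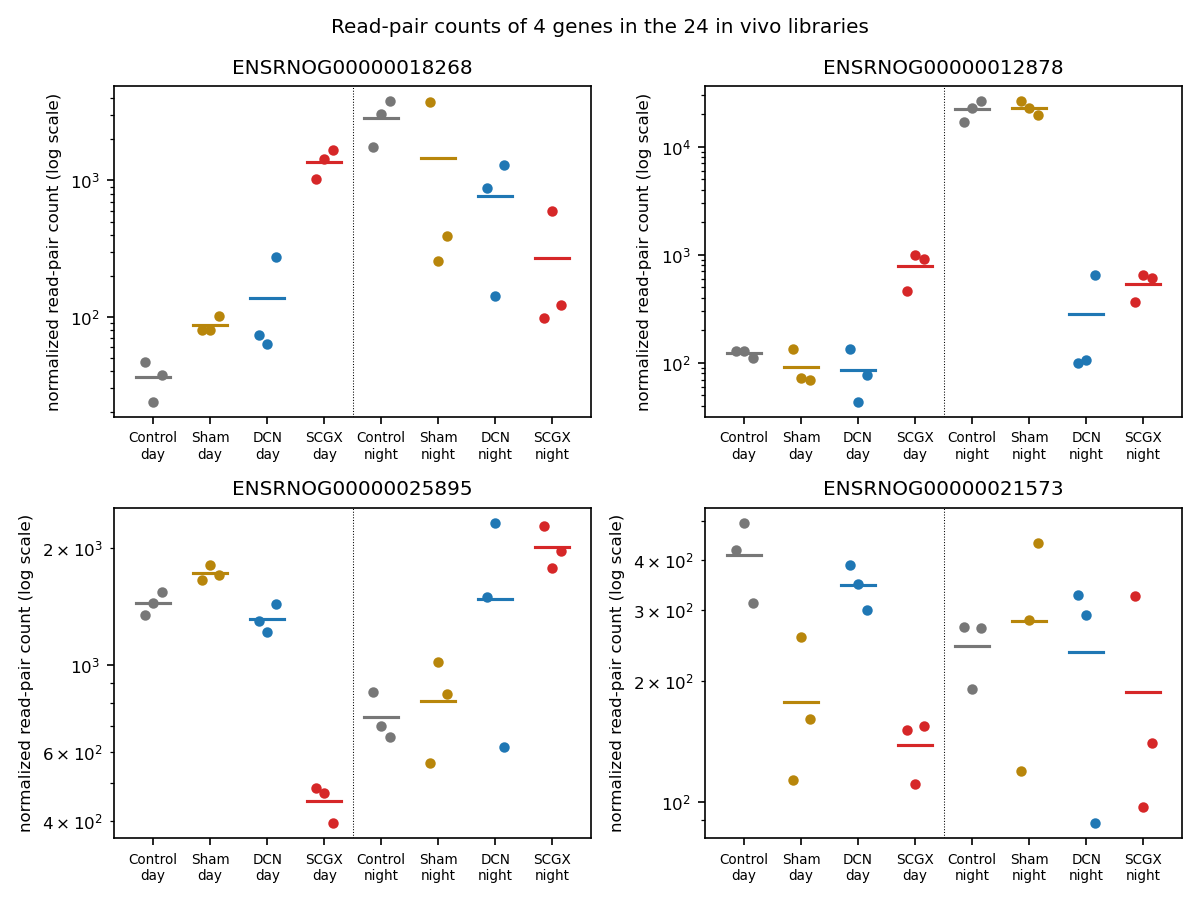
Normalized read-pair counts (y axes, log scale) of the 4 genes in each of the 24 in vivo libraries, with day groups left of the dotted line and night groups right of it; points are libraries, 3 a group, and bars are group means. In the upper panels SCGX day stands above DCN day by about the same factor, 10.02 and 9.13, and in the lower panels it stands below.

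The called genes were then sorted by their night/day difference in Control rats, whose 6 libraries were not used in the comparison of SCGX with DCN. In Control, 2842 genes were higher at night (night genes, 18.2% of those tested) and 2665 were higher at day (day genes, 17.1%) at an adjusted p under 0.05. Of the 94 genes higher in SCGX, 78 (83.0%) were night genes, 1 was a day gene and 15 had no night/day call. Of the 27 genes lower in SCGX, 14 (51.9%) were day genes, 1 was a night gene and 12 had no call. All 13 genes that were over 4-fold higher in SCGX were night genes. Without DCN day replicate 1 the same sorting gave 181 night genes among 341 higher genes (53.1%) and 92 day genes among 216 lower genes (42.6%), so the night genes took a smaller share of a longer list.

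Looked at from the other side, 78 of 2779 tested night genes were called higher in SCGX (2.81%) and 1 was called lower (0.036%). Of 2647 tested day genes, 1 was called higher (0.038%) and 14 were called lower (0.529%). Over all tested genes these shares were 0.591% higher and 0.17% lower. Leaving out DCN day replicate 1, 181 night genes were called higher (6.52%) and 9 lower (0.324%), and 31 day genes were called higher (1.17%) and 92 lower (3.48%). Of all genes tested in that fit, 2.18% were called higher and 1.38% lower. With all 6 libraries the groups did not overlap for 867 night genes with SCGX higher (31.2%) and for 108 with SCGX lower (3.89%), against 12.9% and 12.3% of all tested genes. For day genes the order was reversed, with 173 genes (6.54%) where SCGX was higher and 519 (19.6%) where it was lower. The 9929 tested genes without a night/day call had 15 called higher (0.151%) and 12 called lower (0.121%). Their median log2 fold change of -0.04 was close to the median of -0.02 over all genes.

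Among night genes, the difference between SCGX and DCN at day was larger where the night/day fold in Control was larger. Night genes up to 2-fold in Control had a median log2 fold change of 0.08 in SCGX minus DCN (1982 genes, 20 called higher, 1.01%). The median was 0.21 for night genes between 2 and 4-fold (473 genes, 25 called higher, 5.29%). It was 0.46 between 4 and 8-fold (194 genes, 16 called higher, 8.25%) and 0.52 over 8-fold (130 genes, 17 called higher, 13.1%). Of all tested genes, 0.591% were called higher. For day genes the medians were -0.06, -0.25, -0.27 and -0.155 in the same order, with no steady growth. Without DCN day replicate 1 the night gene medians were 0.06, 0.20, 0.49 and 0.52 and the day gene medians -0.07, -0.23, -0.24 and -0.32, and 76, 47, 31 and 27 night genes were called higher in the same order.

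**Figure D3:**
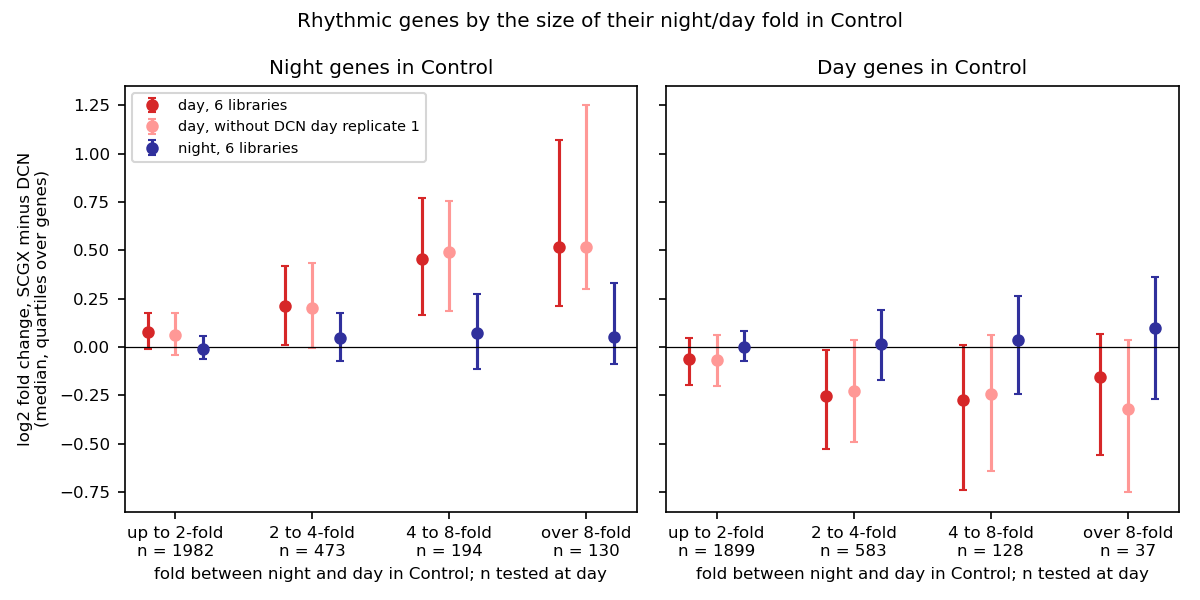
Median log2 fold change of SCGX minus DCN (points, y axis) with the quartiles over genes (bars), for night genes and day genes of Control rats grouped by the size of their night/day fold (x axis). At day the night gene medians rise from 0.08 to 0.52 with the Control fold, and at night they lie between -0.01 and 0.08 in all 4 groups.

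The genes with the strongest rhythm were followed library by library. Strong night genes (adjusted p under 0.001 and over 4-fold higher at night in Control) numbered 296, of which 281 were tested; 33 were called higher in SCGX at day and 0 lower, against 0.591% and 0.17% of all tested genes, and the median log2 fold change was 0.47. Without DCN day replicate 1, 58 were called higher and 1 lower, against 2.18% and 1.38% of all tested genes, with a median of 0.48. Their median log2 level above Control day was 0.98, 0.94 and 1.21 in the SCGX day libraries and 0.44, 0.37 and 0.55 in the DCN day libraries. The groups did not overlap, and DCN day replicate 1, the day library with raised mixed-tissue genes, lay between the other DCN day libraries. Sham day lay between 0.12 and 0.20 and Control night between 2.69 and 2.92. The same Control libraries chose the list and set its zero, so the heights above Control day are a description, whereas the difference between SCGX and DCN does not use them.

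Strong night genes had a median log2 fold change of 0.85 in SCGX minus Sham at day, with 134 called higher and 10 lower (6.58% and 4.83% of all tested genes were). In DCN minus Sham their median was 0.31, with 11 called higher and 11 lower (1.13% and 1.41%). Without DCN day replicate 1 the DCN minus Sham median was 0.245, with 11 called higher and 17 lower (1.32% and 1.44%). These comparisons share the Sham libraries with each other and the operated libraries with the comparison of SCGX with DCN. Strong day genes, 76 in number, went the other way in SCGX: their median log2 level below Control day was -0.66, -0.79 and -0.90 in the SCGX day libraries and -0.61, -0.59 and -0.49 in the DCN day libraries. The median log2 fold change of SCGX minus DCN was -0.22, with 3 called lower and 0 higher, against 0.17% and 0.591% of all tested genes. It was again -0.22 without DCN day replicate 1, with 11 called lower and 2 higher, against 1.38% and 2.18% of all tested genes.

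**Figure D4:**
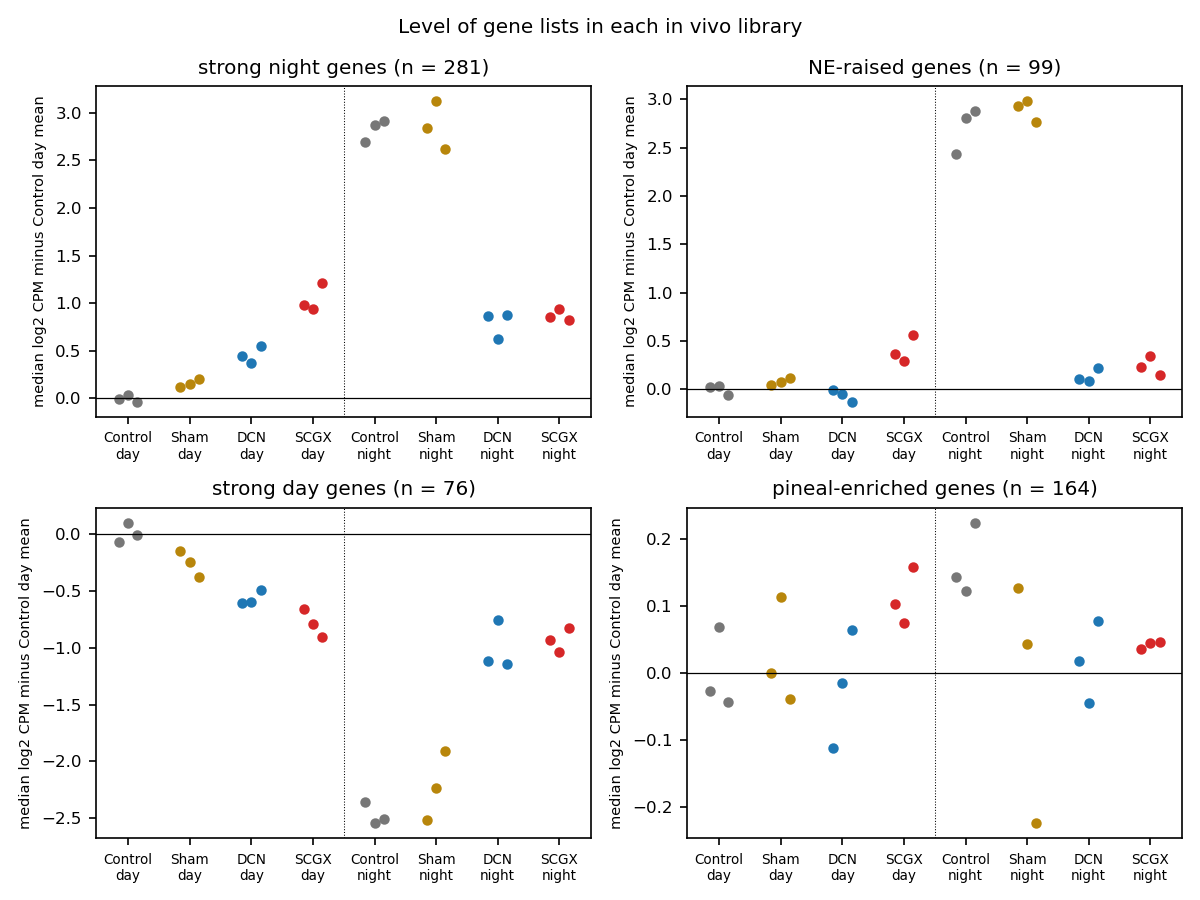
Median log2 CPM of 4 gene lists in each in vivo library, minus the mean of the Control day libraries (y axes); points are libraries, 3 a group, with n the genes in the list that were tested. Strong night genes lie at 0.94 to 1.21 in SCGX day and 0.37 to 0.55 in DCN day, both far under Control night at 2.69 to 2.92; at night SCGX and DCN overlap.

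The culture libraries came from glands of other rats, all female and older, kept in vitro for 48 hours and then treated for 6 hours. They show which of the genes respond to norepinephrine itself. Of the 94 genes higher in SCGX, 93 were tested in culture, and 67 were raised by norepinephrine at an adjusted p under 0.05 while 8 were lowered, against 14.2% and 16.1% of all genes tested there. All 12 of the genes over 4-fold higher in SCGX that were tested in culture were raised. Of the 27 genes lower in SCGX, 3 were lowered by norepinephrine and 2 were raised. Genes raised over 4-fold by norepinephrine at an adjusted p under 0.001 (NE-raised genes) numbered 113, of which 99 were tested at day. Of these 99, 17 were called higher in SCGX (0.591% of all tested genes were) and 0 lower, and the median log2 fold change of the 99 was 0.43. All 17 were also among the 33 strong night genes called higher, so the same genes are counted in both lists. Leaving out DCN day replicate 1 gave 30 called higher and 0 lower of 98 tested, with a median of 0.445. In that fit 2.18% of all tested genes were called higher and 1.38% lower. The median of these 99 genes was 0.36, 0.30 and 0.56 above Control day in the SCGX libraries and -0.01, -0.05 and -0.13 in the DCN libraries.

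Strong night genes were next divided by their response in culture. The 186 raised over 2-fold by norepinephrine at an adjusted p under 0.001 had a median log2 fold change of 0.49 in SCGX minus DCN. Of them, 28 (15.1%) were called higher, or 49 (26.3%) without DCN day replicate 1, against 0.591% and 2.18% of all tested genes. The 25 for which no increase was called in culture had a median of 0.27, with 0 called by edgeR, 3 at an unadjusted p under 0.05 and 1 called by DESeq2, and without DCN day replicate 1 edgeR called 1 lower. Their library medians did not overlap either, at 0.59, 0.55 and 0.65 in SCGX day and 0.15, 0.26 and 0.09 in DCN day. The 13 tested NE-raised genes that were not night genes had a median of -0.04, with 0 called by edgeR, 3 at an unadjusted p under 0.05 and 0 called by DESeq2. The sign of that median turned without DCN day replicate 1, to 0.07 over 12 genes, again with 0 called. The difference between these lists was not tested. Over all genes tested with the 6 libraries, 3134 of 15902 had an unadjusted p under 0.05 by edgeR, and DESeq2 called 762 of 15892.

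At night, where the same operations were compared in 6 other libraries, edgeR called 0 of 15579 genes, the smallest adjusted p was 0.66, and 592 genes had an unadjusted p under 0.05; DESeq2 called 9. Of all genes tested at night, 48.7% had SCGX minus DCN above 0. Of the 94 genes higher in SCGX at day, 78 (83.0%) were also above 0 at night, with a median log2 fold change of 0.12. Of the 27 lower genes, 15 (55.6%) were also below 0, near the share over all genes, with a median of -0.01. Because these genes were picked for their day values, their day folds are enlarged by that choice and their night folds are not. Lists picked in Control carry no such choice. Strong night genes had a median of 0.06 at night, with 0 called and library medians from 0.82 to 0.94 in SCGX night and from 0.63 to 0.88 in DCN night, and strong day genes had a median of 0.08. For strong night genes the DCN night libraries were above the DCN day libraries, whereas the SCGX night libraries were not above the SCGX day libraries. When the day and night differences were set against each other in 1 model (the interaction of operation and time), the fit called 0 of 15779 genes by edgeR, with 1665 at an unadjusted p under 0.05, and 43 by DESeq2.

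**Figure D5:**
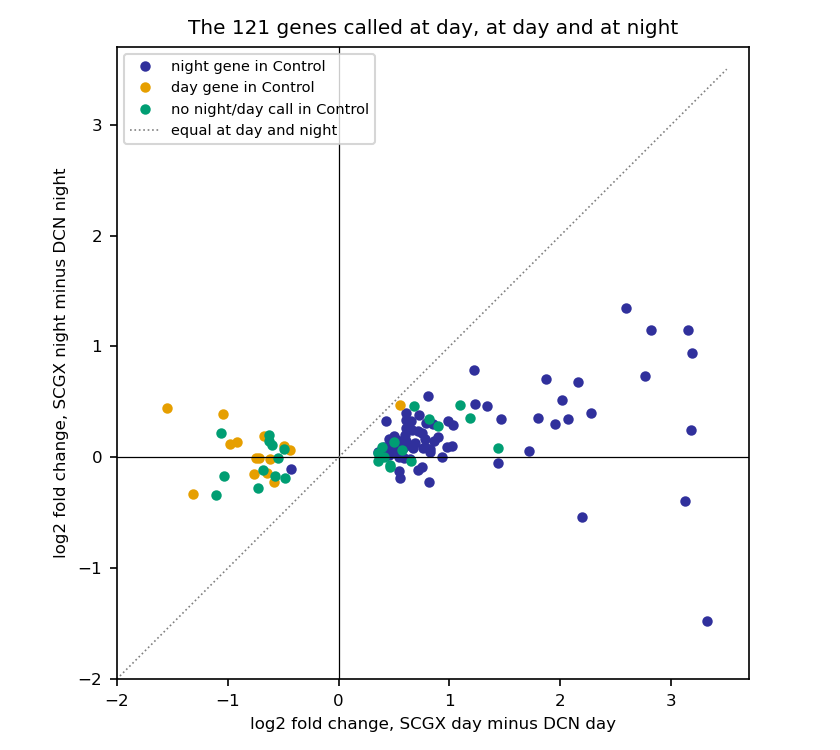
Log2 fold change of SCGX minus DCN at day (x axis) and at night (y axis) for the 121 genes called at day, each point a gene coloured by its night/day class in Control; the dotted line marks equal values. The night values lie between -1.48 and 1.35, with medians of 0.12 for the genes higher in SCGX at day and -0.01 for those lower.

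Of 164 tested pineal-enriched genes, 10 were called higher in SCGX at day (6.10%) and 0 lower, against 0.591% and 0.17% of all tested genes. Without DCN day replicate 1, 26 were called higher (15.9%) and 3 lower (1.83%), against 2.18% and 1.38% of all tested genes. With all 6 libraries the median log2 fold change was 0.165, or 0.09 over the 75 without a night/day call in Control. Of these 75, 2 were called higher (2.67%) and 0 lower, and the rest of the 10 were night or day genes in Control. Without DCN day replicate 1, 8 of the 75 were called higher (10.7%) and 2 lower (2.67%). The library medians of the 164 genes were 0.10, 0.08 and 0.16 in SCGX day and -0.11, -0.01 and 0.06 in DCN day. Mixed-tissue genes had a median of -2.26 over 320 tested genes. Of these, edgeR called 0, 145 had an unadjusted p under 0.05 by edgeR, and DESeq2 called 29. Over all tested genes, 3134 of 15902 had an unadjusted p under 0.05, and DESeq2 called 762 of 15892. Without DCN day replicate 1 the mixed-tissue median was -0.255 over 198 genes, with 1 called higher and 5 lower (2.18% and 1.38% of all tested genes were). Part of the 320 reached the minimum mean count only through DCN day replicate 1, where they were high. The median of -2.26 is therefore partly set by that filter. In pooled glands fewer cells of a type and less RNA per cell cannot be told apart, and the part of the raised mixed-tissue genes in the counts of called genes was not tested beyond leaving out that library.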

How the data were processed

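RNA of pooled rat pineal glands was measured by stranded RNA-Seq of ribo-depleted total RNA. The authors aligned read-pairs with RNA-STAR (version 2.3.1y per the labels) to the rn4 assembly with Ensembl annotation, and the deposited read-pair counts are whole numbers per gene from QoRTs under HTSeq's union rule, without normalization. RPKM values, also deposited by the authors, are those counts per gene length and library total and served here to recover gene lengths and per-length levels. Read-pairs on more than 1 gene are not counted, so near-identical copies can be undercounted. Every library was mapped to its group by its label.

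Models were fitted by edgeR (version 4.0.16, under R 4.3.3, with TMM normalization, quasi-likelihood test, Benjamini-Hochberg adjustment) on the libraries compared, leaving out genes whose normalized count averaged under 5. DESeq2 1.42.0, other scalings and filters, larger models, the replicate block and leaving out each library were alternatives. Summaries used Python 3.11.15. Per-library counts are on a TMM scale over the 24 in vivo libraries, and library medians of lists are of log2 CPM with a prior count of 2. The fits were tested on simulated data.

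Named genes were, in each direction, those with the largest fold among genes called with all 6 libraries, without overlap of the groups and with the same sign without DCN day replicate 1. The rule asked for a symbol, but 0 of 29516 identifiers matched one, so it was applied to identifiers, with 2 given per direction. For the same reason 29 lists of gene symbols, among them markers of other cell types, and promoter motifs were not analysed here. The comparison and all lists were chosen with earlier results of these data known; lists at an adjusted p under 0.05, the splits of lists by fold or by norepinephrine response and the DBcAMP-raised and NE-lowered lists were added after the data were seen. Depth was between 13944276 and 15893427 read-pairs. Replicate pairs differed by more than sampling noise, with a chi-square per degree of freedom between 6.17 and 24.32.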

Additional observations from a re-analysis of the deposited data

Results flagged for a closer look

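The difference between SCGX and DCN changed with the time of day for 43 genes by the Wald test of DESeq2, whereas edgeR called 0 genes in the same interaction, with 1665 genes at an unadjusted p under 0.05. For 32 of the 43 genes SCGX minus DCN was larger at day than at night, and 31 of these were night genes in Control. Of the 43 genes, 18 were also among the 121 called at day by edgeR, 9 were strong night genes and 0 were mixed-tissue genes. The interaction was between 0.25 and 1.66 on the log2 scale in size.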

How the results depend on the processing

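The alternatives were run on the medians of 6 lists (strong night genes, those of them raised by norepinephrine, NE-raised, strong day, pineal-enriched and mixed-tissue genes) and on the 4 named genes. None of these changed direction, which for the 4 genes was all but fixed by picking groups without overlap. Of the other lists, that of NE-raised genes outside the night genes turned from -0.04 to 0.07 without DCN day replicate 1. The median log2 fold change of strong night genes lay between 0.39 and 0.48 under the other settings and between 0.43 and 0.55 when each library was left out, that of NE-raised genes between 0.36 and 0.52 and between 0.34 and 0.51, and that of strong day genes between -0.29 and -0.20 and between -0.29 and -0.14. The pineal-enriched median fell to 0.092 with library size only, and the mixed-tissue median lay between -2.69 and -0.255 when each library was left out, the latter without DCN day replicate 1.

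The number of genes called at day, 121, was less stable. It was 762 with DESeq2, 229 without a filter on low counts, 207 when each library had to hold 10 read-pairs or more, 189 with all 24 in vivo libraries in 1 model, 379 with the 12 day libraries in 1 model and 33 with a fold over 2. It ran from 1 (without SCGX day replicate 1) to 557 (without DCN day replicate 1), with 2 without DCN day replicate 2, 3 without SCGX day replicate 3 and 65 without SCGX day replicate 2. The strict count, 0 by edgeR, was 56 with DESeq2, 11 with all 24 libraries and 6 with the 12 day libraries. At night the count of 0 became 9 with DESeq2 and ran from 0 to 2 when each library was left out, and the interaction count of 0 became 43 with DESeq2 and ran from 0 to 3. Without DCN day replicate 1, alternatives chosen after seeing the data gave 912 genes with DESeq2 and 126 with all 24 libraries. With all 24 libraries in 1 model, ENSRNOG00000018268 (adjusted p = 0.0835) and ENSRNOG00000021573 (adjusted p = 0.179) were not called by edgeR. The causes were not tested.

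Samples of SCGX and DCN share replicate numbers in the labels. Deviations of same-numbered day libraries correlated at 0.054, 0.037 and 0.143 across genes, not all over 0.1, so the libraries were taken to share only a number, although each library correlated best with its own number. With the replicate block, 176 genes were called at day, 0 at night and 0 in the interaction. The smallest folds called were 1.28 among the higher and 1.35 among the lower genes.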

Other observations

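Genes lowered over 4-fold by norepinephrine in culture numbered 11. They were all tested at day in SCGX against DCN. Their median log2 fold change was -0.41, and edgeR and DESeq2 each called 0 of them. By edgeR 5 had an unadjusted p under 0.05, against 3134 of 15902 over all tested genes. DESeq2 called 762 of all 15892 genes it tested. In culture DBcAMP raised 200 genes over 4-fold, of which 156 were tested at day. Of these, 18 were called higher in SCGX and 0 lower (0.591% and 0.17% of all tested genes were). Without DCN day replicate 1, 36 were called higher and 1 lower (2.18% and 1.38% of all tested genes were). With all 6 libraries they had a median log2 fold change of 0.24 and library medians of 0.25, 0.13 and 0.25 in SCGX day and 0.05, -0.03 and -0.08 in DCN day. The summed level of these genes was between 9407 and 12016 CPM in SCGX day, against between 6460 and 6609 CPM in DCN day and between 5690 and 6025 CPM in Sham day.

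The genes higher in SCGX were longer and more abundant than the genes tested as a whole: their median gene length was 2459 bases and their median mean count 1169, against 1894 bases and 266 over all tested genes. For the genes lower in SCGX these were 2096 bases and 570. The part of length and level in the counts of called genes was not tested.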
